A study of Mus musculus with 6 samples.

Results

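The NR4A genes are Nr4a1, Nr4a2 and Nr4a3, which encode the orphan nuclear receptors NUR77, NURR1 and NOR-1. They were taken by gene symbol, and all 3 were present among the 24411 symbols counted in each library. The libraries came from C2C12, a single permanent line of mouse muscle precursor cells that join into long myotubes with many nuclei in low serum. Fully differentiated myotubes of wild-type genotype were given 10 µM Sardomozide dihydrochloride, an inhibitor of the polyamine enzyme S-adenosylmethionine decarboxylase (the product of Amd1), or the solvent DMSO, both for 72 h, and each group had 3 libraries. The series asks what inhibition of Amd1 does to the transcripts of muscle cells. The trio was chosen by its Sardomozide against DMSO values, which were already known and in which Nr4a3 stood among the larger rises. The values of the 3 genes in that contrast are therefore given below as a description, without p-values, and their intervals show precision only.

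NR4A proteins bind DNA through a pair of zinc fingers, as monomers at the element called NBRE, as dimers, or in the case of NUR77 and NURR1 together with a retinoid X receptor. Their ligand pocket is filled with bulky side chains, so that their activity is thought to depend largely on how much of the protein is made. The genes are classical early-response genes. In skeletal muscle, cyclic AMP, calcium and exercise are known to induce them, and their products are linked there to glucose and fatty acid use.

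Library totals ran from 30820423 to 36709804 counts with Sardomozide and from 25496323 to 32108033 counts with DMSO. No label ties the replicates to separate cultures. The p-values below may therefore rest on technical spread alone. The labels call the cell type myoblasts, and the 6 myotube markers analysed (Ckm, Acta1, Myh3, Tnnt3, Myog and Des) were high, with summed levels of 14867 to 16204 CPM with Sardomozide and 14430 to 15540 CPM with DMSO (CPM, counts scaled to a common library size). Markers of unfused or cycling myoblasts were Pax7, Myf5, Mki67, Top2a and Ccnb1. They summed to 336 to 362 CPM with Sardomozide and 310 to 326 CPM with DMSO. These ranges did not overlap, as was so in that direction for 17% of all genes tested. Mki67 rose (log2 fold change 0.16 ± 0.054, edgeR adjusted p = 0.0443). Top2a, Ccnb1 and Pax7 leaned higher and Myf5 lower, without an adjusted p under 0.05. Of the 6 myotube markers 1, Myog, rose (0.24 ± 0.043, edgeR adjusted p = 0.000547). The part of these differences in the results below was not tested. Macrophage markers summed to 1.99 to 2.63 CPM with Sardomozide and 1.85 to 2.27 CPM with DMSO, with Ptprc and Adgre1 at 0 in all libraries. Endothelial markers reached at most 0.896 CPM with Sardomozide and 1.07 CPM with DMSO, with Emcn at 0 in all libraries. Adipocyte markers reached at most 0.0548 CPM with Sardomozide and 0 CPM with DMSO, with Adipoq, Plin1, Cidec and Lep at 0 in all libraries. A count of 0 allows a level of up to 0.118 CPM in the shallowest library. DMSO replicate 1 stood apart from the other DMSO libraries, at −19.2 on the second principal component against 8.72 and 12.5.

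Nr4a3 was about 3 times as high with Sardomozide as with DMSO, Nr4a1 differed little and the group means of Nr4a2 were nearly equal. The counts of Nr4a3, the gene of NOR-1, were 486, 393 and 340 with Sardomozide, against 75, 133 and 141 with DMSO. Scaled to library size it had 13.3, 11.5 and 10.9 CPM with Sardomozide, against 2.95, 4.14 and 4.73 CPM with DMSO. The groups did not overlap, and the lowest Sardomozide library was 2.3 times the highest DMSO library. The means were 11.9 ± 1.27 CPM with Sardomozide and 3.94 ± 0.906 CPM with DMSO (SD, n = 3 each), with a log2 fold change of 1.58 ± 0.15 (SE). Without DMSO replicate 1, which had the lowest Nr4a3 level, it was 1.43. Nr4a3 lies on chromosome 4 from 48045153 to 48086447 on the forward strand (GRCm38).

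Nr4a1, the gene of NUR77, was the most abundant of the 3, with 1410, 1255 and 1175 counts with Sardomozide and 834, 1031 and 1152 counts with DMSO. This gave 38.7, 36.7 and 37.6 CPM with Sardomozide, against 32.8, 32.1 and 38.6 CPM with DMSO. DMSO replicate 3 lay within the range of the Sardomozide libraries, so the groups overlapped. The log2 fold change was 0.13 ± 0.071 (SE), with an approximate 95% interval of −0.01 to 0.26. Without DMSO replicate 3 it was 0.22. The gene lies on chromosome 15 from 101254269 to 101274795 on the forward strand.

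Nr4a2, the gene of NURR1, had 217, 183 and 155 counts with Sardomozide and 134, 173 and 170 counts with DMSO. It had 5.95, 5.35 and 4.96 CPM with Sardomozide, against 5.27, 5.39 and 5.7 CPM with DMSO. Both the highest and the lowest of the 6 values came from Sardomozide libraries. The log2 fold change was −0.01 ± 0.14 (SE), with an interval of −0.29 to 0.27, so that a modest change in either direction could not be seen at this depth. Nr4a2 lies on chromosome 2 from 57106830 to 57124003 on the reverse strand. In GENCODE M21 the 3 loci overlap 0 other annotated genes on either strand, so that annotation places no neighbour or antisense gene whose reads could be counted there.

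**Figure D1:**
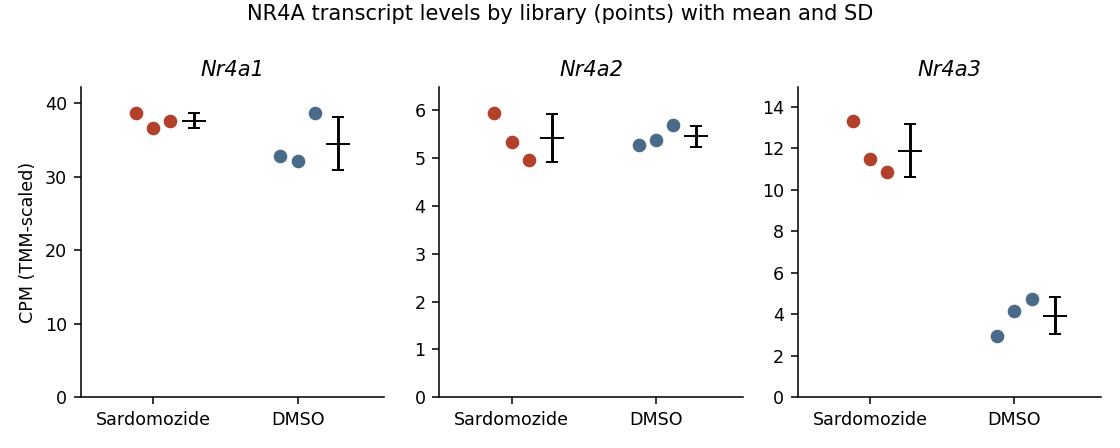
CPM of Nr4a1, Nr4a2 and Nr4a3 (vertical axes from 0, a scale for each gene) in the Sardomozide and DMSO libraries; points are libraries and bars are means with SD (n = 3). Nr4a3 is at 10.9 to 13.3 CPM with Sardomozide and 2.95 to 4.73 CPM with DMSO, while the groups of the other members overlap.

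The lowest count of Nr4a3, 75 in DMSO replicate 1, carries a counting error of 11.5%, whereas the spread between DMSO libraries was 23.0% of their mean and that between Sardomozide libraries 10.7%. Summed over each group, Nr4a3 had 1219 counts with Sardomozide and 349 counts with DMSO, a depth-corrected ratio of 2.99 with an exact 95% interval of 2.66 to 3.38. The same ratio was 1.09 (1.04 to 1.14) for Nr4a1, from 3840 counts with Sardomozide and 3017 with DMSO. For Nr4a2 it was 0.997 (0.881 to 1.13), from 555 counts with Sardomozide and 477 with DMSO. These intervals cover counting error only. For Nr4a1 the interval was narrower than the spread between libraries warrants, since its DMSO libraries varied by 10.4% of their mean. Of the 3 genes, 1 was among those called higher by edgeR's quasi-likelihood test, against 7.88% of the 13076 genes tested, and its groups were the ones that did not overlap, against 17% of all genes tested in that direction. Since this contrast chose the trio, nothing is read from these counts.

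The make-up of the NR4A pool differed between the groups, with a larger share of Nr4a3 with Sardomozide. Of the summed NR4A counts, Nr4a3 took 23.0%, 21.5% and 20.4% in the Sardomozide libraries, against 7.19%, 9.95% and 9.64% in the DMSO libraries. These shares do not depend on how libraries are scaled. They rest on the same counts that chose the trio and are a description. Nr4a1 took 68.5 ± 1.81% with Sardomozide and 78.6 ± 1.43% with DMSO, and Nr4a2 took 9.85 ± 0.51% with Sardomozide and 12.5 ± 0.737% with DMSO (SD, n = 3 each). The summed level was 57.9, 53.5 and 53.5 CPM with Sardomozide, against 41.0, 41.6 and 49.1 CPM with DMSO. Of the difference of 11.1 CPM between the group means, Nr4a3 made up 7.96 CPM and Nr4a1 3.13 CPM, and Nr4a2 differed by −0.03 CPM.

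Levels of different genes were compared per length, as CPM per kb of annotated exon (3509 bases for Nr4a1, 4059 for Nr4a2 and 5987 for Nr4a3). On this scale Nr4a1 had 10.7 ± 0.286 CPM per kb with Sardomozide and 9.84 ± 1.02 with DMSO. Nr4a3 had 1.99 ± 0.213 CPM per kb with Sardomozide and 0.658 ± 0.151 with DMSO, and Nr4a2 had 1.34 ± 0.123 with Sardomozide and 1.34 ± 0.0548 with DMSO (SD, n = 3 each). The order of the lower pair was therefore opposite in the 2 groups. Nr4a3 was 1.46 to 1.52 times Nr4a2 in the 3 Sardomozide libraries and 0.379 to 0.562 times Nr4a2 in the 3 DMSO libraries. Nr4a1 stayed the most abundant throughout, at 4.95 to 5.9 times Nr4a3 in the Sardomozide libraries and 13.2 to 19 times Nr4a3 in the DMSO libraries. Its ratio to Nr4a2 was 7.52 to 8.77 with Sardomozide and 6.89 to 7.84 with DMSO, ranges that overlapped.

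**Figure D2:**
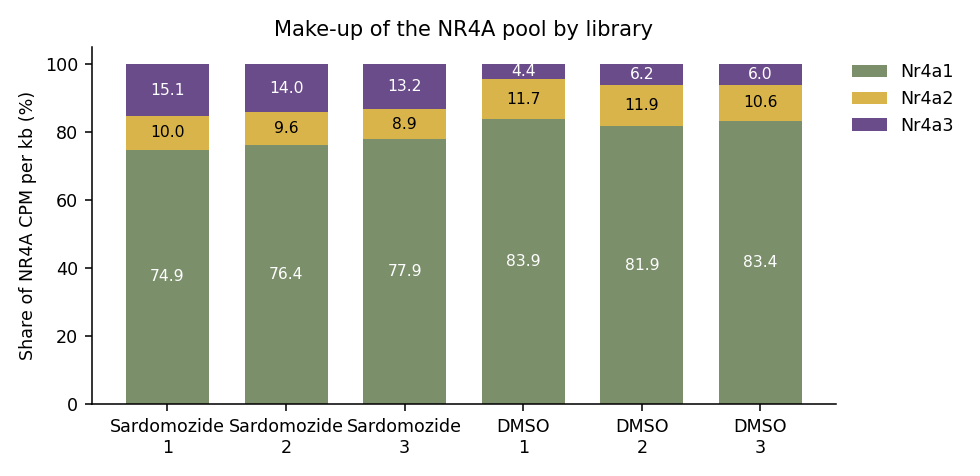
Share of the summed NR4A level (CPM per kb, in percent) held by each gene in every library; each bar is a library and adds to 100%. Nr4a3 holds 13.2% to 15.1% in the Sardomozide libraries and 4.42% to 6.19% in the DMSO libraries.

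The sequence just before the RefSeq transcription start of each gene (GRCm38.p6) was searched for letters that the factors of these pathways recognise. It is shown because NR4A genes are known targets of CREB, which binds the cyclic AMP response element (CRE, TGACGTCA) and its shorter form TGACG. Capitals mark TGACG or its reverse complement CGTCA. The Nr4a1 stretch is chr15:101266596-101266845 (forward strand), the Nr4a2 stretch is chr2:57124004-57124253 (reverse strand) and the Nr4a3 stretch is chr4:48045055-48045152 (forward strand). The last was ended where the first GENCODE exon begins, and a RefSeq model of Nr4a3 starts within it.
Nr4a1: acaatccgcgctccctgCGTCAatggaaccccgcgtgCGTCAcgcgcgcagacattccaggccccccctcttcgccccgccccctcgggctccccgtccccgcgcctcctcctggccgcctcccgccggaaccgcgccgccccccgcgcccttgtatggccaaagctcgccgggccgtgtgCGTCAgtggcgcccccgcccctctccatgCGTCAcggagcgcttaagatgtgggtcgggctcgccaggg
Nr4a2: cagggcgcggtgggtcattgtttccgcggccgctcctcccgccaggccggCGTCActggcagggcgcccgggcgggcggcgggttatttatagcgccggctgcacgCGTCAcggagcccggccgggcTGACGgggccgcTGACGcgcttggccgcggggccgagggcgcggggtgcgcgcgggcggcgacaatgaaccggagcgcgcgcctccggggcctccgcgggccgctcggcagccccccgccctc
Nr4a3: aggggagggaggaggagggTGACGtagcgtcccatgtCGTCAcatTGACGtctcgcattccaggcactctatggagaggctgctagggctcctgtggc
In the full windows of 250 bases, the short motif occurred 4 times in each gene. It began 233, 213, 69 and 40 bases before the start used for Nr4a1, 200, 144, 123 and 111 bases before that of Nr4a2, and 231, 213, 205 and 147 bases before that of Nr4a3. Of 32851 mouse promoter windows of this length, 17.8% held the short motif on either strand and 45 (0.137%) held it at least 4 times. Those shares cover windows of any base composition, whereas the windows of Nr4a1, Nr4a2 and Nr4a3 were 74.4%, 80% and 63.6% G or C. No comparison with windows of like composition was made. A whole CRE counts as 2 overlapping short motifs. None of the 3 windows held the whole CRE (in 1.55% of windows), the NBRE AAAGGTCA (1.34%) or the AP-1 motif TGANTCA (6.75%), and the TATA motif TATAAA (12.4%) occurred once, in that of Nr4a2, on the reverse strand. The windows of Nr4a1 and Nr4a2 thus held as many short motifs as that of Nr4a3, for the RefSeq starts used. Before its first GENCODE exon the Nr4a3 window held 3. The Nr4a1 window lies inside the GENCODE locus of that gene, which starts at 101254269. These matches are a description of letters, not of binding.

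**Figure D3:**
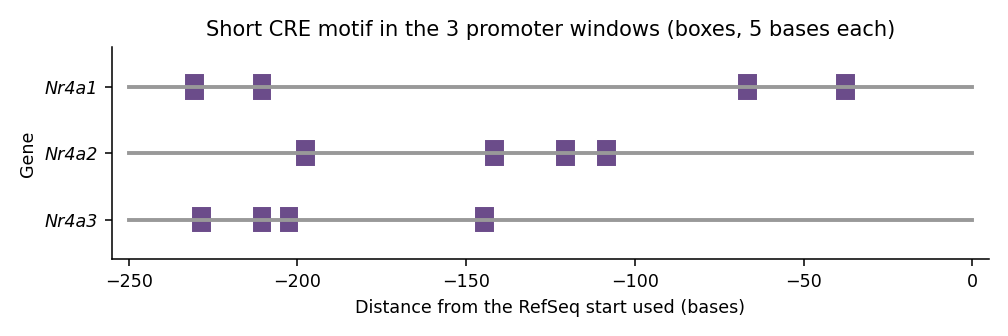
Position of the short CRE motif (boxes) in the 250 bases before the RefSeq start of each NR4A gene, with the distance from the start in bases on the horizontal axis. Each gene has 4 boxes, the nearest at 40 bases for Nr4a1, 111 for Nr4a2 and 147 for Nr4a3.

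Among tested genes with a whole CRE in the same window of their promoter, 38 of 308 (12.3%) rose and 15 (4.87%) fell with Sardomozide, beside 7.88% and 8.45% of all genes tested. Their median log2 fold change was 0.007, against −0.001 over all genes tested. With the short motif, 280 of 3040 genes (9.21%) rose and 185 (6.09%) fell. For the AP-1 motif the counts leaned the other way, with 41 of 558 (7.35%) higher and 66 (11.8%) lower. With the NBRE, the element that NR4A proteins bind, 10 of 101 genes (9.9%) rose and 8 (7.92%) fell. Median log2 fold changes were 0.012 with the short motif, −0.03 with the AP-1 motif and −0.008 with the NBRE. The shares over all genes tested include genes without a promoter window, and base composition was not matched. No test was made of these shares.

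No other nuclear receptor gene tested had a fold change as large as that of Nr4a3, whose own value is no test because it chose the gene. Of the other 46 nuclear receptor genes 30 were tested, of which 1 rose, 4 fell and 25 did not pass (16.7% called, against 16.3% of all genes tested). Their median log2 fold change was −0.07. This list and those below were chosen with earlier results of these data known, so nothing is read from their called shares. The one that rose was Esr1, the estrogen receptor alpha gene, with 29.9, 29.0 and 28.4 CPM with Sardomozide, against 24.2, 23.8 and 23.9 CPM with DMSO (log2 fold change 0.28 ± 0.069, edgeR adjusted p = 0.00788). Rarg, a retinoic acid receptor gene, fell to 84.3, 84.0 and 81.4 CPM with Sardomozide, against 101, 99.5 and 107 CPM with DMSO (−0.30 ± 0.047, edgeR adjusted p = 0.000143). The groups did not overlap for either gene.

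Esrrb, an estrogen-related receptor gene, and Rorb, a retinoid-related orphan receptor gene, fell by more but from few counts. Esrrb had 75, 67 and 40 counts with Sardomozide and 75, 109 and 107 with DMSO (log2 fold change −0.90 ± 0.23, edgeR adjusted p = 0.00953). Rorb had 28, 35 and 42 counts with Sardomozide and 62, 71 and 56 with DMSO (−1.06 ± 0.29, edgeR adjusted p = 0.0154). The Rorb call was lost without Sardomozide replicate 1, DMSO replicate 1 or DMSO replicate 2 (adjusted p = 0.0632, 0.071 and 0.0529). Rara, which falls outside the rule for named genes, also fell (−0.19 ± 0.053, edgeR adjusted p = 0.0158). Without DMSO replicate 1, 2 nuclear receptor genes fell. The retinoid X receptor gene Rxra, whose product pairs with NUR77 and NURR1, had 18.2 ± 0.597 CPM per kb with Sardomozide and 20.1 ± 1.07 with DMSO. It leaned lower but was not called (log2 fold change −0.14 ± 0.049, edgeR adjusted p = 0.0581).

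Lengths counted every annotated exon base of a gene, whether or not these cells use it, so the ranks are approximate. By level per length, Nr4a1 stood 10th of 49 nuclear receptor genes with Sardomozide and 11th with DMSO. Its neighbours with Sardomozide were Rxrb at 12.3 ± 0.639 and Nr1d2, a clock repressor gene, at 10.6 ± 0.513 CPM per kb, and Nr1d2 did not differ from it beyond the spread. With DMSO they were Nr1d2 at 10.9 ± 0.355 and Esrra at 9.75 ± 0.42 CPM per kb. Nr4a1 did not differ from either beyond the spread, so its places as 10th and 11th cannot be told apart. Nr4a3 stood 20th with Sardomozide, between Nr2f2 (2.07 ± 0.125) and Pparg (1.5 ± 0.0477), and 25th with DMSO, between Nr6a1 (0.711 ± 0.148) and Esrrb (0.548 ± 0.054). Its level did not differ beyond the spread from that of Nr2f2 with Sardomozide, or from those of Nr6a1 and Esrrb with DMSO. Nr4a2 stood 22nd with Sardomozide, between Pparg and Nr1h3 (0.985 ± 0.148), and 20th with DMSO, between Esr1 (1.75 ± 0.0182) and Pparg (1.24 ± 0.0435).

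**Figure D4:**
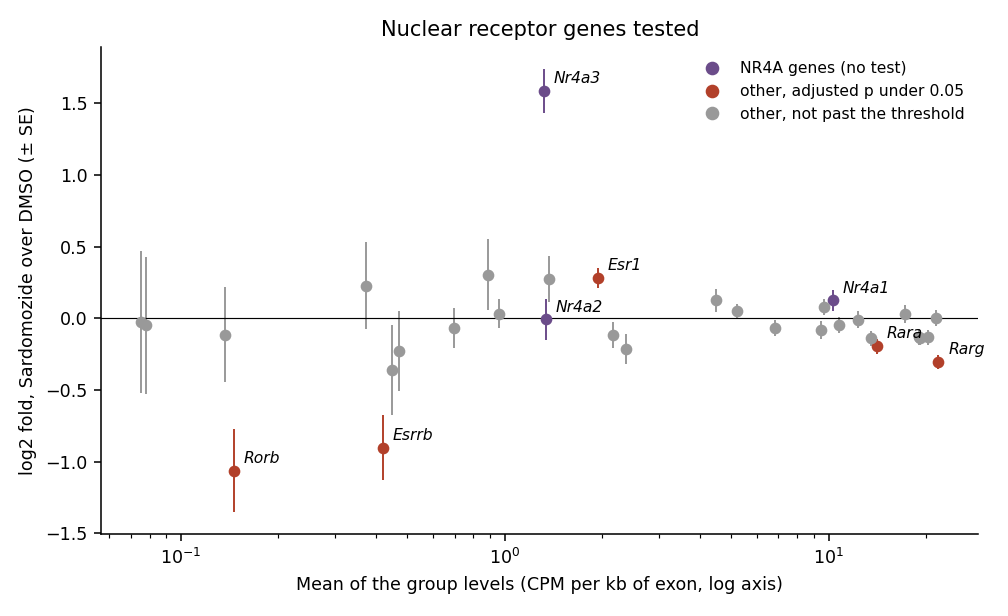
Log2 fold change (Sardomozide over DMSO, ± SE) of the nuclear receptor genes tested against their level (CPM per kb, log axis). Nr4a3 lies at 1.58, while the other nuclear receptor genes lie between −1.06 (Rorb) and 0.3.

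Genes of cyclic AMP and CREB signalling, which acts upstream of NR4A transcription, moved in both directions. Of 28 tested, 4 rose and 3 fell (25% called, against 16.3% of all genes tested), with a median log2 fold change of 0.008. Sik1, a kinase gene that CREB induces and whose product restrains CREB coactivators, had 358, 315 and 336 CPM with Sardomozide, against 286, 293 and 305 CPM with DMSO (log2 fold change 0.19 ± 0.047, edgeR adjusted p = 0.00809). Its call was lost without DMSO replicate 1 (adjusted p = 0.0576). Prkar2a, a regulatory subunit gene of protein kinase A, rose (0.22 ± 0.05, edgeR adjusted p = 0.00462). The adenylate cyclase genes Adcy7 and Adcy6 fell (−0.16 ± 0.04 and −0.19 ± 0.048, edgeR adjusted p = 0.0082 and 0.00882), Adcy6 not without DMSO replicate 3 (adjusted p = 0.0604). Outside the rule for named genes, Pkig, a kinase A inhibitor gene, rose (0.13 ± 0.042) and Prkar1a, another regulatory subunit gene, fell (−0.16 ± 0.045, edgeR adjusted p = 0.0344 and 0.0203). The list had 1 gene higher without DMSO replicate 1, 2 higher without Sardomozide replicate 1, and 1 lower without DMSO replicate 3.

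Calcium signals reach Nr4a1 through MEF2 factors, which class IIa histone deacetylases restrain, and through calcineurin and NFAT. Of 23 tested genes of these pathways 3 rose and 6 fell (39.1% called, against 16.3% of all genes tested), with a median log2 fold change of −0.09. Mef2a rose to 568, 553 and 575 CPM with Sardomozide, against 435, 448 and 452 CPM with DMSO (0.34 ± 0.041, edgeR adjusted p = 9.67e-06). Hdac9 fell to 5.29, 4.79 and 6.56 CPM with Sardomozide, against 12.4, 12.4 and 10.8 CPM with DMSO (−1.10 ± 0.13, edgeR adjusted p = 9.9e-06). Hdac5, another class IIa deacetylase gene, fell by less (−0.25 ± 0.043, edgeR adjusted p = 0.000512). Nfatc2 had 3.02, 2.8 and 2.15 CPM with Sardomozide, against 6.77, 6.13 and 7.95 CPM with DMSO (−1.38 ± 0.17, edgeR adjusted p = 1.56e-05). The other 2 that rose, named after their values were seen, were Rcan1, a calcineurin inhibitor gene, and Ppp3cb, a calcineurin subunit gene (0.26 ± 0.07 and 0.17 ± 0.046, edgeR adjusted p = 0.0154 and 0.0184). The other 3 that fell, also named so, were Hdac7, Camk2b and Camk2g (−0.28 ± 0.054, −0.26 ± 0.067 and −0.15 ± 0.042, edgeR adjusted p between 0.00126 and 0.0181).

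The other immediate early genes, which like the NR4A genes are switched on fast by outside signals, moved in both directions. Of 29 tested, 4 rose and 6 fell (34.5% called, against 16.3% of all genes tested), with a median log2 fold change of −0.05. Jun and Ier5 rose (0.26 ± 0.045 and 0.28 ± 0.053, edgeR adjusted p = 0.000408 and 0.000996). So did Fosl2 and Csrnp1, named after their values were seen (0.16 ± 0.044 and 0.28 ± 0.093, edgeR adjusted p = 0.0171 and 0.0455). Egr2 fell to 36.4, 30.1 and 30.1 CPM with Sardomozide, against 43.1, 43.8 and 47.9 CPM with DMSO (−0.48 ± 0.074, edgeR adjusted p = 0.000163). Npas4, a gene induced by calcium, had 5, 1 and 1 counts with Sardomozide and 11, 15 and 19 counts with DMSO (edgeR adjusted p = 0.00716), too few for a firm fold change. The other 4 that fell, named after their values were seen, were Klf2, Egr3, Klf4 and Egr1 (−0.56 ± 0.13, −0.32 ± 0.069, −0.25 ± 0.064 and −0.24 ± 0.063, edgeR adjusted p between 0.01 and 0.0228). Fos and Crem, early CREB targets chosen for mention after their values were seen, had log2 fold changes of 0.08 ± 0.088 and 0.06 ± 0.16 and did not pass (edgeR adjusted p = 0.614 and 0.853). Without DMSO replicate 2, 2 of the list rose, and without Sardomozide replicate 3, 3 fell.

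Of 20 tested genes whose products pair with, modify or serve as cofactors of NR4A proteins, 3 rose and 3 fell (30% called, against 16.3% of all genes tested). Med1, a Mediator subunit gene, Ncoa2, a coactivator gene, and Rps6ka2, the gene of an RSK kinase, rose by 0.16 ± 0.044, 0.19 ± 0.047 and 0.19 ± 0.052 on the log2 scale (edgeR adjusted p = 0.0187, 0.00764 and 0.0166). Fhl2, the gene of a LIM protein that binds NUR77, fell (−0.24 ± 0.067, edgeR adjusted p = 0.0186). The acetyltransferase gene Kat2b also fell and was named after its values were seen (−0.18 ± 0.054, edgeR adjusted p = 0.0239). The calls for Fhl2, Med1 and Rps6ka2 were each lost in 3 of the 6 fits that left out a library, with adjusted p up to 0.104, 0.0939 and 0.0924. No list member was called lower without DMSO replicate 1, and 1 was without Sardomozide replicate 1 or DMSO replicate 3. With Sardomozide replicate 3 or DMSO replicate 2 left out, 1 rose.

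Of 22 tested genes that muscle studies have linked to NR4A activity, 2 rose and 8 fell (45.5% called, against 16.3% of all genes tested), with a median log2 fold change of −0.07. Those that fell were Pfkm, Eno3, Pdk4, Cd36 and Ucp2, which serve fuel use, and Cav3, Mb and Igfbp5. Of these, Eno3, Ucp2, Mb and Igfbp5 fall outside the rule for named genes. Pfkm, the muscle phosphofructokinase gene, fell to 675, 640 and 658 CPM with Sardomozide, against 811, 858 and 847 CPM with DMSO (−0.35 ± 0.043, edgeR adjusted p = 1.33e-05). Cd36, a fatty acid transporter gene, fell to 13.8, 8.7 and 9.86 CPM with Sardomozide, against 25.2, 25.8 and 22.3 CPM with DMSO (−1.18 ± 0.14, edgeR adjusted p = 0.000194). Pdk4, which encodes a kinase that slows glucose oxidation, and Cav3, the muscle caveolin gene, fell too (−0.63 ± 0.081 and −0.34 ± 0.049, edgeR adjusted p = 2.28e-05 and 7.42e-05).

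The genes of this list that rose were the coactivator genes Ppargc1a and Ppargc1b, which fall outside the rule for named genes. Ppargc1a, the gene of PGC-1alpha, a master factor of mitochondrial growth and a CREB target, had 5.29, 5.87 and 5.51 CPM with Sardomozide, against 2.4, 2.74 and 3.02 CPM with DMSO (1.03 ± 0.17, edgeR adjusted p = 0.000227). Ppargc1b rose by less (0.24 ± 0.081, edgeR adjusted p = 0.0455) and its groups overlapped. Without Sardomozide replicate 3, DMSO replicate 1 or DMSO replicate 2, 1 gene of the list rose. Among the 12 tested genes of the list that did not pass were Lpin1 and Pdpr, which also fall outside that rule. Their log2 fold changes were 0.07 ± 0.068 and −0.08 ± 0.072 (edgeR adjusted p = 0.518 and 0.529). Promoter windows were found for 22 genes of this list, a set that includes Fbp2 and Mstn, which were not tested for change. Of these windows 0 held the NBRE letters (1.34% of all windows) and 1, that of Pdpr, held a whole CRE (1.55%). At so low a share 0 of 22 windows is nothing unusual, and only 250 bases before each start were searched.

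**Figure D5:**
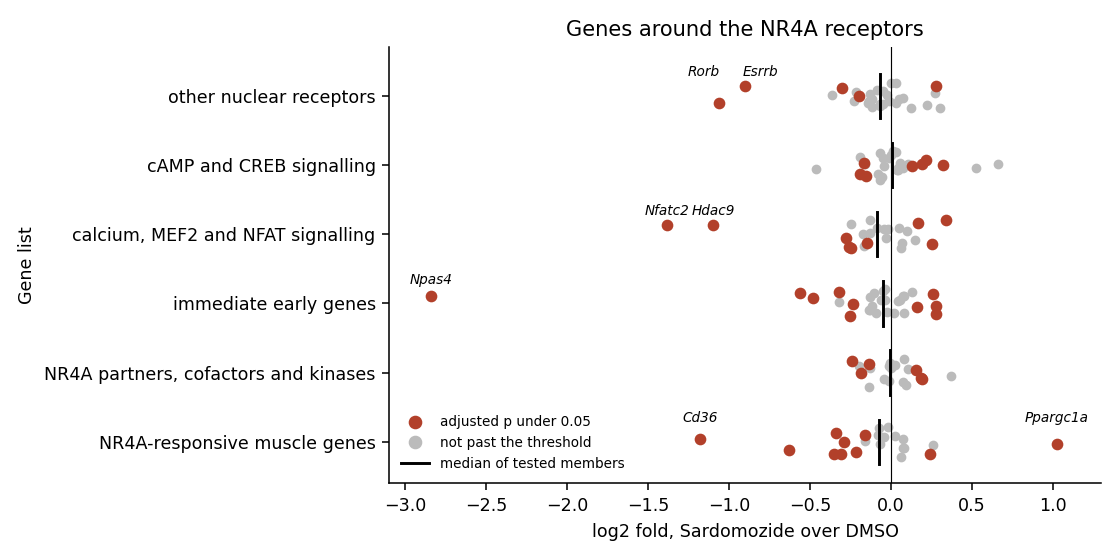
Log2 fold change (Sardomozide over DMSO) of each tested gene in 6 lists around the NR4A receptors; red points have an edgeR adjusted p under 0.05, grey points do not, and black lines are list medians. Medians lie between −0.09 and 0.008, and the farthest points are Npas4 at −2.84 and Ppargc1a at 1.03.

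Of 10277 genes with a mean of at least 2 on the log2 CPM scale, the profile over the 6 libraries nearest to that of Nr4a3 was that of Bglap2, an osteocalcin gene, at a root mean square distance of 0.18 on the log2 scale. Bglap2 had 6.55, 6.84 and 6.82 CPM with Sardomozide, against 2.16, 2.74 and 2.78 CPM with DMSO, and its counts are uncertain because osteocalcin genes resemble each other closely. Next came Asprv1, a skin protease gene, Galnt6, a glycosyltransferase gene, Nptx1, a pentraxin gene, and Adm, the adrenomedullin gene, at distances of 0.19, 0.24, 0.28 and 0.29. Asprv1 had 34.8, 32.4 and 31.1 CPM with Sardomozide, against 9.99, 10.8 and 10.2 CPM with DMSO. These 5 genes had log2 fold changes between 1.06 and 1.66. The nearest profiles to that of Nr4a1 were those of Ddx59, Caml, Fam189a2, Ccdc92 and Kcnj12, at distances of 0.024 to 0.035. All 5 had log2 fold changes between 0.1 and 0.17 and did not pass the test (edgeR adjusted p between 0.296 and 0.592). Likeness here is closeness of values over 6 libraries and nothing more.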

How the data were processed

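RNA of 6 libraries was measured by paired-end sequencing. The authors deposited raw read counts per gene symbol, one table per library. Tools named in the submitters' processing notes are STAR, StringTie and DESeq2, on GRCm38 or mm10. What each tool did, its version, the annotation, the use of strand and the fate of reads that match several places are not stated there. A count of 0 allows up to 3 counts. Replicates differed by more than sampling noise (chi-square of 5.45 to 16.1 per degree of freedom), so all 6 libraries were kept.

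The test was the quasi-likelihood test of edgeR (version 4.0.16, R 4.3.3), two-sided, after TMM scaling and the filterByExpr filter (10 counts at a common depth, 15 in all), with Benjamini-Hochberg adjustment over the 13076 genes kept. Genes under 0.05 were called. Standard errors were computed from each fold change and its F value. Positions and exon lengths come from GENCODE M21 (GRCm38), which has the symbol of 12619 of the genes tested, and promoters from RefSeq (GRCm38.p6), which had all 3 members. The fit was tested on simulated counts.

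The members and the 6 lists were chosen with earlier results of these data known. Some list members are not reported here by name. Lists share some genes, such as Ep300 and the retinoid X receptors. Named genes followed a rule: the members, up to 4 called genes per list in order of adjusted p, called nuclear receptor genes changed at least 1.5-fold, and the 5 nearest profiles of Nr4a1 and Nr4a3 (root mean square distance of log2 CPM, centred per gene, plain symbols only). Alternatives were RLE or no scaling factors, no filter, a stricter filter (1 CPM in 3 libraries), DESeq2 1.42.0, a replicate block and leaving out each library.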

Additional observations from a re-analysis of the deposited data

How the results depend on the processing

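The log2 fold changes of the 3 NR4A genes moved by less than the spread between replicates under every alternative run. With a library left out they ran from 1.43 to 1.73 for Nr4a3, 0.07 to 0.22 for Nr4a1 and −0.08 to 0.05 for Nr4a2. Nr4a3 stayed between 1.58 and 1.59 with other scaling factors, filters, DESeq2 or the replicate block. Scaling moved the median of all genes by far less than 0.1 on the log2 scale.

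Over the fits without 1 library, 620 to 927 genes rose and 706 to 1025 fell. All of these fits had fewer samples. Genes of cyclic AMP and CREB signalling that rose numbered 1 to 4 and those that fell 1 to 3. Immediate early genes that rose numbered 2 to 4 and those that fell 3 to 6. NR4A partners that rose numbered 1 to 3 and those that fell 0 to 3, with 5 lower when no filter was used. NR4A-responsive muscle genes that rose numbered 1 to 3, and other nuclear receptors that fell 2 to 5. The cause was not tested. Of 406 values of the other 34 named genes under the alternatives, 392 kept their direction and side of the threshold and 14 lost their call, all without a library.

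Same-numbered libraries did not deviate together (correlations of 0.02, −0.02 and −0.02 over genes), so the numbers are not taken as pairs. With the replicate block 855 genes rose and 965 fell, and Nr4a3 had a log2 fold change of 1.59. Counts under about 100 per library, as for Rorb and Npas4, limit what can be seen. Such counts also occurred in some libraries for Nr4a3, Esrrb, Nfatc2, Ppargc1a, Bglap2 and Adm.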
